A study of Mus musculus with 4 samples.

Results

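The transcripts described here encode the proteins that shorten the poly(A) tail, remove the cap and degrade mRNA in mouse embryos, together with DDX6, the RNA helicase that was deleted. The 52 genes were taken by symbol from a fixed list of the mRNA decapping, deadenylation and decay machinery. The rule used no measured value, but the list was drawn up with earlier results of these data known. All 52 were among the 24421 genes of the count table and among the 14393 genes that had at least 10 reads in at least 1 library.

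RNA sequencing of polyadenylated transcripts gave 4 libraries from whole embryos of the ICR strain. Wild-type embryos gave 1 library at embryonic day 7.5 (E7.5 WT, or wild-type E7.5) and 1 at day 8.5 (E8.5 WT, or wild-type E8.5), and Ddx6 -/- embryos at day 8.5 gave KO1 and KO2. The KO allele lacked exon 5 in every cell. It came from a floxed line crossed with a CAG-Cre deletion line, whose Cre is under a ubiquitous promoter, and heterozygotes were then intercrossed. Per the study's text, KO1 pooled embryos from before and after head-fold formation, whereas KO2 pooled embryos from before it alone. The KO libraries are therefore separate pools of different stage makeup, and each WT stage had a single library. How many embryos each WT library held was not given in the sources used here.

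Most mRNAs are degraded from their ends. The CCR4-NOT and PAN2-PAN3 complexes first remove the poly(A) tail, the LSM1-7 ring then binds the shortened 3′ end with PATL1, and DCP2 removes the cap so that XRN1 can digest the body from the 5′ side, while the exosome digests from the 3′ side. DDX6 binds CNOT1 and also contacts EIF4ENIF1, LSM14, PATL1 and EDC3, proteins found with it in P-bodies, the cytoplasmic granules that hold repressed mRNA. The question asked of these data was whether the transcripts of these partners, or of the other decay routes, differed in embryos without DDX6.

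Exon 5 is printed because it is the part removed from the KO allele. In the first-named coding transcript of Ddx6 in GENCODE it spans chr9:44623619-44623748 on the plus strand of GRCm38 and is 130 bases long. The capitals mark the codons of helicase motif I, which binds the phosphates of ATP.

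Ddx6 exon 5: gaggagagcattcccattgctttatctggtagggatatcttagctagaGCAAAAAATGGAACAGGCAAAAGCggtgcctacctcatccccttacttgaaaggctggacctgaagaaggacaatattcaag

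The exon carries codons 124 to 167 of 483, and motif I covers residues 140 to 147. The DEAD box, the second ATP-binding motif, covers residues 246 to 249 and lies in exons 7 and 8. The length of exon 5 leaves a remainder of 1 after division by 3, and joining exon 4 to exon 6 places the first in-frame stop at codon 126, in exon 6. The exon number is that of the annotation, and its identity with the floxed exon was not checked here. The counts were summed per gene, so reads over exon 5 could not be told apart from reads over the rest of Ddx6.

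Library totals ranged from 8198402 counts in KO1 to 12562640 in wild-type E8.5, and the members took from 0.702% of the reads in KO1 to 0.855% in wild-type E8.5. The median member had between 621 reads (KO1) and 1019 reads (wild-type E8.5), and the lowest between 55 and 88. Marker genes of other tissues differed between the libraries. Levels were compared in CPM, counts divided by the effective library size. Summed CPM of 6 trophoblast markers were 249 in wild-type E7.5, 182 in wild-type E8.5, 424 in KO1 and 791 in KO2. In the same order, 6 maternal decidua markers summed to 250, 65.7, 99.7 and 228. The single decidua markers did not share a pattern. Prl8a2 had 1318, 26, 64 and 1433 reads, whereas Bmp2 had 484, 450, 397 and 650 and Wnt4 71, 90, 140 and 127. The sums of 6 visceral endoderm markers were 4207, 4851, 2432 and 2275, and those of 6 primitive erythroid markers 31.4, 247, 2.38 and 5.09. Apob gave 20617, 38222, 14125 and 18530 of the 50035, 59618, 20425 and 27719 visceral endoderm reads. Apob and Afp had more reads in wild-type E8.5 than in wild-type E7.5, whereas Apoa1, Ttr, Rbp4 and Apom had fewer. From 2 to 3 of the trophoblast markers were at 0 in each library, with Tpbpa and Prl3b1 at 0 in all 4. Hand1, which is also expressed outside trophoblast, gave 86.9% of the sum in wild-type E7.5, 99.5% in wild-type E8.5, 99.5% in KO1 and 41.8% in KO2. Without Hand1 the sums were 32.6, 0.895, 2.14 and 460, so KO1 was then below wild-type E7.5. Of 6 markers of the embryo proper none was at 0 in any library. KO2 alone had no reads on 4 Y-linked genes and 17340 reads on Xist, which is transcribed from the inactive X chromosome. Xist had 46 reads in wild-type E7.5, 17 in wild-type E8.5 and 15 in KO1. Sex makeup thus differed between KO2 and every other library, and its part in the differences of KO2 below was not tested. In whole embryos, fewer cells of a type and less RNA per cell cannot be told apart, and the part of tissue makeup in the results below was not tested.

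Ddx6 had 2943 reads in wild-type E7.5, 5715 in wild-type E8.5, 706 in KO1 and 929 in KO2. Each KO library was far below both WT libraries. Per length, in reads per kb of annotated exon scaled to the effective library size (the total times the normalization factor), its levels were 40.8, 76.7, 13.9 and 12.6 in the same order, so the KO libraries kept 18.1% and 16.4% of the wild-type E8.5 level. The mean log2 change against wild-type E8.5 was -2.54 ± 0.10 (SD, n = 2 KO libraries), and the nearest KO library was 1.56 below the lower WT library on the log2 scale. With edgeR's quasi-likelihood test and Benjamini-Hochberg adjustment over all genes tested the p was 3.94e-05 and the adjusted p 0.193, whereas DESeq2 gave an adjusted p of 2.23e-28. That edgeR fit could estimate spread only between KO1 and KO2. The same holds for every test against wild-type E8.5 below. Each SD likewise holds the spread of the KO libraries alone and no wild-type variation. The study itself judged its KO libraries too variable for statistical significance and used them for a rough trend.

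A gene was counted as changed when its log2 CPM differed from wild-type E8.5 by over 1. In KO1 no member was higher by this rule, against 4.97% of all genes, and 1 was lower, against 3.31%. In KO2 no member was higher, against 9.41% of all genes, and 1 was lower, against 5.91%. The lower member was Ddx6 in each case. Required in both KO libraries, the rule gave 0 higher members (3.44% of all genes) and 1 lower member, Ddx6 itself (1.79% of all genes). The low count of calls beside the share of all genes has to be read with depth, since sparse genes pass the rule more often. Among the 10456 genes with a mean count at or above that of the lowest member, 1.27% were higher and 0.545% lower in both KO libraries. That floor leaves out sparse genes but does not match the depth of the members.

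The members lay close to wild-type E8.5. In both KO libraries 44 of 52 (84.6%) were within 0.5 of wild-type E8.5 on the log2 scale. The share was 60.6% of all genes and 74.6% of the genes at or above the lowest member's mean count. The median change of the members was -0.13 in KO1 and -0.09 in KO2, where the median of all genes was -0.01 and -0.00. In 30 members the KO libraries were both lower, in 8 both higher, and the other 14 had opposite signs. Of all 14393 genes, 5413 were lower in both, 5228 higher in both and 3720 of opposite sign. For the 10456 genes at or above the lowest member's mean count the numbers were 4214, 3562 and 2680. The changes of KO1 and KO2 share the wild-type E8.5 library, so they are not independent of each other.

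**Figure D1:**
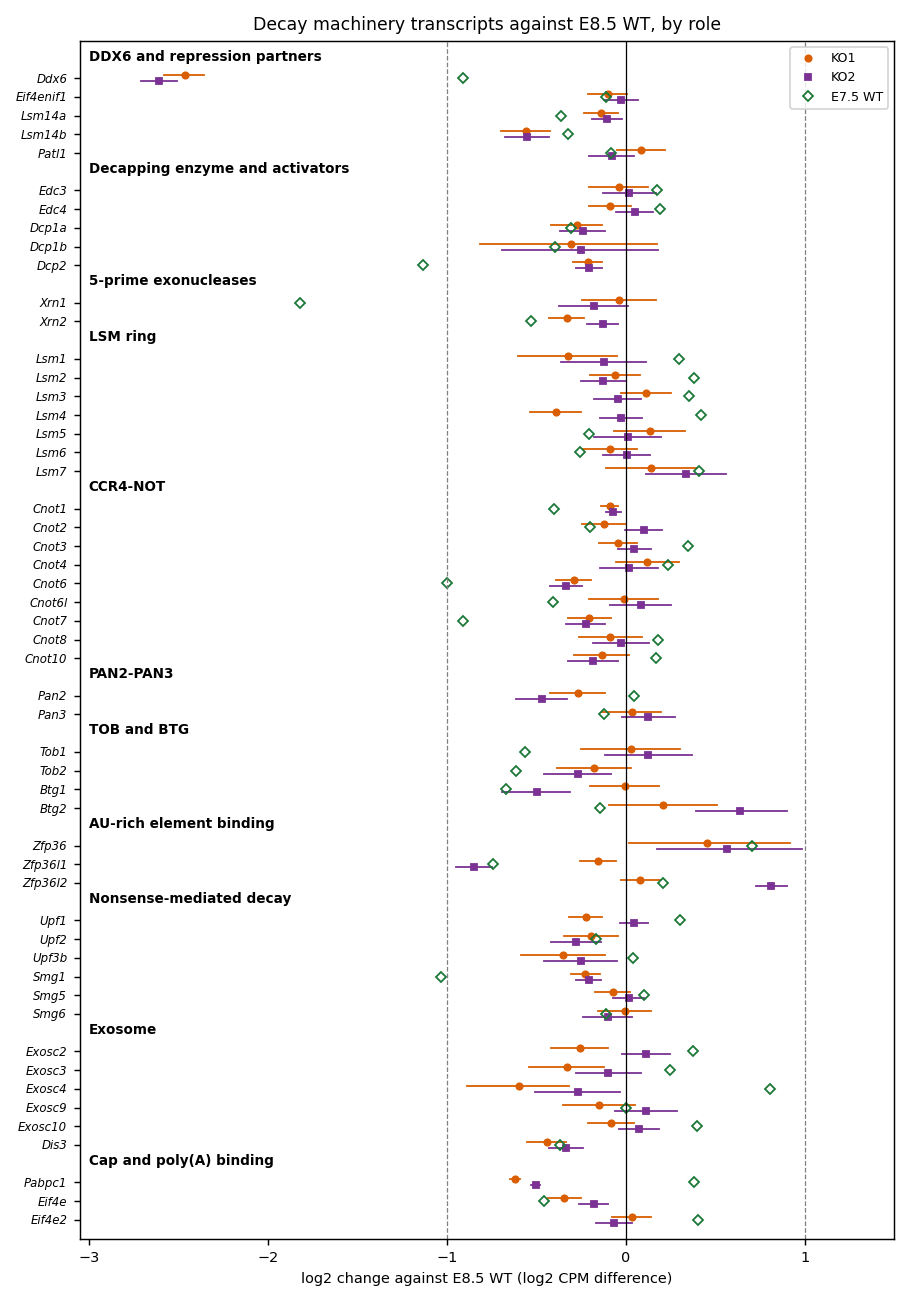
Log2 change against wild-type E8.5 (horizontal axis, log2 CPM difference) of the 52 members, grouped by role. Circles are KO1 and squares KO2, each with its exact 95% counting interval, open diamonds are wild-type E7.5, and dashed lines mark a change of 1. Ddx6, at -2.47 and -2.61, is the only member past a dashed line in a KO library, whereas Dcp2, Xrn1, Cnot6 and Smg1 lie past it in wild-type E7.5.

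Smaller differences were read against counting intervals, which cover counting error only. The exact 95% interval excluded 0 in both KO libraries on the upper side for 1 member, Zfp36, against 13.7% of all genes. On the lower side it did so for 15.8% of all genes and 19.0% of those at or above the lowest member's mean count. It did so for 18 members (34.6%). Beside Ddx6 these were Lsm14a, Lsm14b, Dcp1a, Dcp2, Xrn2, Cnot1, Cnot6, Cnot7, Pan2, Zfp36l1, Upf2, Upf3b, Smg1, Exosc4, Dis3, Pabpc1 and Eif4e. The count depended on scaling: with plain CPM and no normalization factor 2 members were on the upper side and 11 (21.2%) on the lower side, where all genes gave 17.7% and 11.2%. Under that scaling the median of the mean changes was -0.03 over the members and 0.05 over all genes, and under the normalization factors it was -0.09 and -0.01.

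Tested against wild-type E8.5 in edgeR, the unadjusted p was below 0.05 for 0 higher members (4.28% of all genes) and for 4 lower members (2.94% of all genes), which were Ddx6, Lsm14b, Dis3 and Pabpc1. After Benjamini-Hochberg adjustment in edgeR no gene of the table passed (0.0%), so no member did. DESeq2 called 1 member, Ddx6, at an adjusted p below 0.05, and 0.243% of all genes. With both WT libraries as 1 group, the unadjusted edgeR p was below 0.05 for 0 higher members (2.56% of all genes) and for 2 lower members, Ddx6 and Pabpc1 (1.37% of all genes). DESeq2 again called Ddx6 alone among the members in that comparison, and 0.222% of all genes, and no gene passed the adjusted edgeR test there (0.0%).

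**Figure D2:**
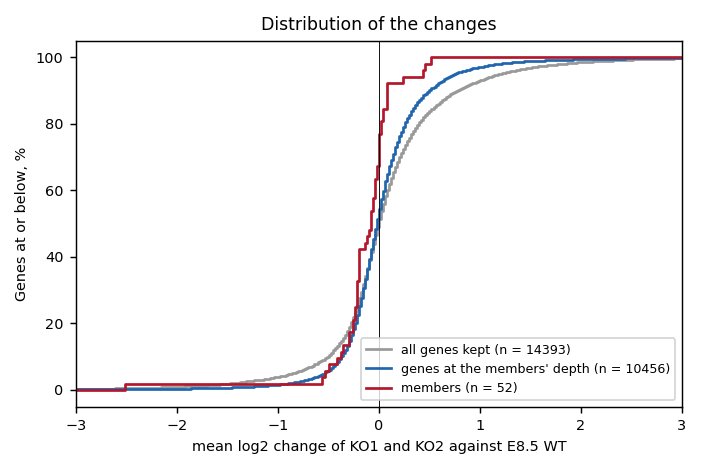
Cumulative share of genes (vertical axis, %) at or below each mean log2 change of KO1 and KO2 against wild-type E8.5 (horizontal axis, shown from -3 to 3). Lines stand for the 14393 genes kept, 10456 genes at or above the lowest member's mean count and the 52 members. The legend calls the 10456 genes those at the members' depth. The members' line is steeper around 0, apart from Ddx6 at -2.54, and lies toward the lower side. At a change of 0 it stands at 76.9%, beside 51.5% for all genes kept and 54.5% for the 10456 genes.

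The direct partners of DDX6 were next examined. Eif4enif1, whose protein binds the cap-binding factor EIF4E and is needed for P-bodies, had 1575 reads in wild-type E7.5, 1756 in wild-type E8.5, 1118 in KO1 and 1708 in KO2. Its per-length levels were 32.2, 34.8, 32.4 and 34.1 in the same order, all within 0.11 of wild-type E8.5 on the log2 scale. The log2 changes of the KO libraries were -0.10 and -0.03, and neither counting interval excluded 0.

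Lsm14a and Lsm14b encode paralogous P-body proteins that bind DDX6. Lsm14a had 1785, 2375, 1476 and 2187 reads in wild-type E7.5, wild-type E8.5, KO1 and KO2, or 51.0, 65.6, 59.7 and 61.0 per length. Lsm14b had 1046, 1351, 626 and 914 reads, or 30.4, 38.0, 25.8 and 25.9 per length. Lsm14a in the KO libraries lay between the wild-type stages, whereas Lsm14b lay below both of them, by 0.23 at the nearest pair. The mean change of Lsm14b was -0.55 ± 0.01 (SD, n = 2), with an edgeR p of 0.0118 that adjusted to 0.669. Lsm14b made up 37.4% and 36.7% of the summed per-length level of the pair in wild-type E7.5 and wild-type E8.5, and 30.2% and 29.8% in KO1 and KO2. Against both WT libraries the edgeR p of Lsm14b was 0.0982.

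Patl1, which bridges the LSM1-7 ring and the decapping enzyme, had 971, 1063, 770 and 998 reads and per-length levels of 19.4, 20.5, 21.7 and 19.4. Its 4 levels lay close together, with log2 changes of 0.08 and -0.08. Edc3, a decapping enhancer that competes for the same surface of DDX6, had 827, 756, 502 and 760 reads and per-length levels of 12.2, 10.8, 10.5 and 10.9. Its log2 changes were -0.04 and 0.02. Edc4, the scaffold of the decapping complex, had changes of -0.09 and 0.05.

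The decapping enzyme itself differed mainly between the wild-type stages. Dcp2, the catalytic subunit, had 1423 reads in wild-type E7.5, 3228 in wild-type E8.5, 1903 in KO1 and 2777 in KO2. The KO libraries were near wild-type E8.5 and well above wild-type E7.5. The KO changes were -0.21 and -0.20 against wild-type E8.5 and 0.92 and 0.93 against wild-type E7.5, and wild-type E7.5 was 1.13 below wild-type E8.5 on the log2 scale.

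Dcp1a and Dcp1b encode the activating subunit. Dcp1a had 888, 1134, 641 and 951 reads and levels of 13.4, 16.5, 13.7 and 14.0 per length, so its KO levels lay between the wild-type stages. Dcp1b had 73, 100, 55 and 83 reads and levels of 1.85, 2.46, 1.98 and 2.06 per length. Dcp1a made up 87.0% to 87.9% of the pair in every library, and with 100 reads or fewer the intervals of Dcp1b included 0 in both KO libraries.

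Of the 5′ exonuclease genes, Xrn1 gave the widest difference between stages among all the members. Xrn1, the cytoplasmic 5′ to 3′ exonuclease, had 129 reads in wild-type E7.5, 476 in wild-type E8.5, 317 in KO1 and 417 in KO2. All the E8.5 libraries were above wild-type E7.5. The KO changes were -0.04 and -0.18 against wild-type E8.5, and 1.78 and 1.64 against wild-type E7.5. Xrn2, its nuclear counterpart, had KO changes of -0.33 and -0.13 and a stage difference of -0.53.

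The LSM ring binds the 3′ end of deadenylated mRNA. LSM1 is found in the cytoplasmic ring alone, and LSM2 to LSM7 also occur in a nuclear ring. The changes of the 7 genes ran from -0.39 to 0.14 in KO1 and from -0.13 to 0.33 in KO2, and none had an interval that excluded 0 in the same direction in both. Of them 5 were higher at the younger wild-type stage, as were 7327 of all 14393 genes. The median stage difference of the 7 was 0.35.

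Lsm7 had the highest mean change of the ring, at 0.24 ± 0.14 (SD, n = 2). It had 384 reads in wild-type E7.5, 298 in wild-type E8.5, 225 in KO1 and 373 in KO2, or 28.6, 21.5, 23.7 and 27.1 per length, so both KO libraries were between the wild-type stages. Near-identical stretches of other genes covered 27.8% of the Lsm7 transcript and 56.5% of that of Lsm5, and 23.4% of Lsm3 overlapped another gene on the same strand, so reads of these 3 genes may be split or lost.

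The deadenylases came next. The 9 CCR4-NOT genes measured had changes between -0.29 and 0.12 in KO1 and between -0.34 and 0.10 in KO2, with medians of -0.09 and -0.03. Cnot1, the scaffold to which DDX6 binds, had 6703, 9162, 5882 and 8650 reads, and its changes of -0.09 and -0.07 were small although both counting intervals lay below 0. Cnot2, Cnot3, Cnot4, Cnot8 and Cnot10 had changes between -0.18 and 0.12 in both libraries.

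Cnot6 and Cnot6l encode alternative deadenylase subunits of one class. Cnot6 had 1144, 2368, 1321 and 1860 reads and 16.8, 33.6, 27.4 and 26.6 per length. Its KO changes were -0.29 and -0.34, with an edgeR p of 0.0506, and wild-type E7.5 held 49.9% of the wild-type E8.5 level. Cnot6l had 409, 561, 380 and 589 reads and 3.90, 5.18, 5.13 and 5.48 per length, with changes of -0.01 and 0.08. Cnot6 made up 81.1%, 86.6%, 84.2% and 82.9% of the pair.

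Cnot7 and Cnot8 encode the deadenylase subunits of the other class. Cnot7 had 785, 1525, 904 and 1293 reads and 17.2, 32.3, 28.1 and 27.7 per length, with the KO libraries near wild-type E8.5. Cnot8 had 738, 673, 433 and 655 reads and 29.6, 26.1, 24.6 and 25.6 per length. Cnot7 accordingly made up 36.8% of the pair in wild-type E7.5, against 55.3% in wild-type E8.5, 53.3% in KO1 and 51.9% in KO2. A near-identical copy covered 36.2% of the Cnot8 transcript and another 39.5% of that of Cnot3.

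Of the other deadenylase, Pan2, the catalytic subunit, had 949 reads in wild-type E7.5, 949 in wild-type E8.5, 538 in KO1 and 679 in KO2. Both KO libraries were below both WT libraries, by 0.27 at the nearest pair, and the mean change was -0.37 ± 0.14 (SD, n = 2) with an edgeR p of 0.0816. Pan3, its RNA-binding partner, had 653, 736, 514 and 796 reads and 9.40, 10.3, 10.5 and 11.2 per length, with changes of 0.03 and 0.12.

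Deadenylation is recruited to particular mRNAs by adaptors. TOB and BTG proteins bind CNOT7 and CNOT8. Tob1 had 176, 270, 188 and 292 reads and 6.47, 9.6, 9.78 and 10.5 per length, and Tob2 had 324, 513, 310 and 422 reads and 6.56, 10.1, 8.89 and 8.34 per length. Their KO changes lay between -0.27 and 0.12. Tob1 made up 49.6%, 48.8%, 52.4% and 55.7% of the pair.

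Btg1 and Btg2 differed between the KO libraries. Btg1 had 337, 556, 378 and 390 reads and 5.37, 8.57, 8.53 and 6.07 per length. Btg2 had 183, 209, 165 and 324 reads and 5.61, 6.2, 7.16 and 9.69 per length. KO1 had the wild-type E8.5 level of Btg1, whereas KO2 was 0.49 below KO1 on the log2 scale (counting interval -0.70 to -0.28). Btg2 in KO2 was 0.43 above KO1 (0.16 to 0.72), and Btg2 made up 51.1%, 42.0%, 45.6% and 61.5% of the pair.

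**Figure D3:**
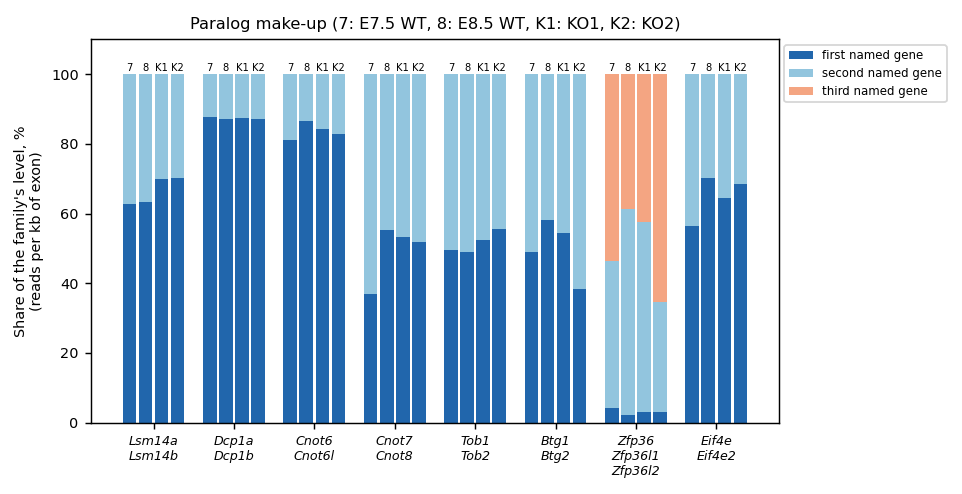
Share of each paralog in the summed per-length level of its family (vertical axis, %), with 4 bars per family for wild-type E7.5, wild-type E8.5, KO1 and KO2. Each bar is stacked in the order of the gene names below it. The share of Zfp36l2, the third named gene of its family, is 65.5% in KO2 and between 38.8% and 53.6% in the other libraries.

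The ZFP36 proteins bind AU-rich elements and recruit CCR4-NOT. Zfp36 had 140 reads in wild-type E7.5, 88 in wild-type E8.5, 83 in KO1 and 130 in KO2, or 3.39, 2.06, 2.85 and 3.07 per length. Its mean change was the highest of the members, 0.51 ± 0.08 (SD, n = 2), and both KO libraries lay between the wild-type stages. The edgeR p was 0.199.

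Zfp36l1 had 1258, 2175, 1334 and 1198 reads and 35.4, 59.2, 53.1 and 32.9 per length. KO1 was near wild-type E8.5 and KO2 near wild-type E7.5. Zfp36l2 had 1879, 1684, 1217 and 2934 reads and 44.8, 38.8, 41.1 and 68.2 per length, with KO2 above every other library. The changes against wild-type E8.5 were -0.16 and -0.85 for Zfp36l1 and 0.08 and 0.81 for Zfp36l2, so the pair went in opposite directions in KO2.

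The difference between KO2 and KO1 was -0.69 for Zfp36l1 (counting interval -0.81 to -0.58) and 0.73 for Zfp36l2 (0.64 to 0.83). These were the widest differences between the KO libraries among the members. Neither passed the threshold of 1, and no member did in either direction, beside 5.99% of all genes that were higher in KO2 and 4.89% that were lower. KO2 was also the library with the highest summed trophoblast markers, no embryo from after head-fold formation and no reads on the Y-linked genes. These traits of KO2 cannot be told apart here, and their part in the differences was not tested. Counting intervals between the KO libraries excluded 0 for 14 members higher in KO2 and 5 lower (36.5%), beside 40.8% of all genes.

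Nonsense-mediated decay degrades mRNAs with a premature stop. Its 6 genes had changes between -0.35 and -0.01 in KO1 and between -0.28 and 0.05 in KO2. Upf1, the helicase of the pathway, had changes of -0.22 and 0.05, and Smg5 and Smg6, which act after its phosphorylation, lay within 0.10 of wild-type E8.5.

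Smg1, the kinase that phosphorylates UPF1, had 1606 reads in wild-type E7.5, 3394 in wild-type E8.5, 1983 in KO1 and 2912 in KO2, and its KO changes were -0.23 and -0.21. The adaptors Upf2 and Upf3b lay below both WT libraries in both KO libraries, Upf2 by 0.03 and Upf3b by 0.25 at the nearest pair. Upf3b, which is on the X chromosome, had 432, 435, 233 and 362 reads. The Y-linked counts above show KO2 to hold no male cells detectable at this depth, and the effect of that on Upf3b was not tested.

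The exosome digests RNA from the 3′ end. Its 6 genes had a median change of -0.29 in KO1 and -0.01 in KO2. Dis3, a catalytic subunit, had 1536, 2051, 1032 and 1610 reads and 25.1, 32.4, 23.9 and 25.7 per length. Its mean change was -0.39 ± 0.07 (SD, n = 2), with an edgeR p of 0.0360 that adjusted to 0.669, and an unadjusted p of 0.0554 with plain CPM. The KO levels were close to that of wild-type E7.5, with changes of -0.07 and 0.03 against it.

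Exosc4, a subunit of the ring, had 564 reads in wild-type E7.5, 333 in wild-type E8.5, 150 in KO1 and 274 in KO2, or 26.4, 15.1, 9.95 and 12.5 per length. Neither KO library reached the lower WT library. Its mean change against wild-type E8.5 was -0.43 ± 0.23 (SD, n = 2), and against wild-type E7.5 the changes were -1.40 and -1.07. Exosc10, the nuclear catalytic subunit, had changes of -0.08 and 0.07, and Exosc9 of -0.15 and 0.11.

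Pabpc1, the cytoplasmic poly(A)-binding protein, was the most abundant member in every library. It had 42215 reads in wild-type E7.5, 33534 in wild-type E8.5, 14907 in KO1 and 23433 in KO2, or 1260, 969, 630 and 683 per length. Both KO libraries were below both WT libraries, by 0.50 on the log2 scale at the nearest pair. It took 40.9%, 31.2%, 25.9% and 26.6% of the members' reads in the same order.

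The mean change of Pabpc1 against wild-type E8.5 was -0.56 ± 0.08 (SD, n = 2), with an edgeR p of 0.0236 that adjusted to 0.669 and a DESeq2 adjusted p of 0.0741. Against both WT libraries the edgeR p was 0.0130, and it was 0.119 without KO1 and 0.0841 without KO2. A near-identical copy covered 37.3% of its transcript, so part of its reads may have been assigned elsewhere or left out. With plain CPM the gap to the lower WT library was 0.45.

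The cap-binding proteins EIF4E and EIF4E2 take part in translation and in its repression. Eif4e had 1932, 2737, 1474 and 2394 reads and 31.7, 43.4, 34.2 and 38.3 per length, and its KO levels lay between the wild-type stages. Eif4e2 had 2185, 1709, 1194 and 1618 reads and 24.5, 18.5, 19.0 and 17.7 per length, with changes of 0.03 and -0.07. Eif4e made up 56.4%, 70.1%, 64.4% and 68.4% of the pair.

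Since the study describes the KO embryos as delayed, the members were also set against the younger wild type. Both KO libraries were above both WT libraries for 4 members, Lsm5, Pan3, Tob1 and Btg2, beside 18.4% of all genes. Both were below both WT libraries for 13 members, beside 17.6% of all genes. The 13 were Ddx6, Lsm14b, Lsm1, Lsm2, Lsm4, Cnot8, Cnot10, Pan2, Upf2, Upf3b, Exosc3, Exosc4 and Pabpc1. By a margin of over 0.5, 0 members were above (3.49% of all genes) and 2, Ddx6 and Pabpc1, were below (1.5% of all genes), and with plain CPM Pabpc1 no longer met this margin.

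Against wild-type E7.5, 1 member, Xrn1, was over 1 higher in both KO libraries (6.91% of all genes) and 2 members, Ddx6 and Exosc4, were over 1 lower (2.7% of all genes). Between the wild-type stages, no member was over 1 higher in wild-type E7.5 than in wild-type E8.5, beside 7.82% of all genes. Dcp2, Xrn1, Cnot6 and Smg1 were over 1 lower, which is 4 members, beside 12.2% of all genes. The median size of the difference between stages was 0.36 for the members, against 0.15 in KO1 and 0.13 in KO2, and for all genes it was 0.47, 0.26 and 0.27.

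**Figure D4:**
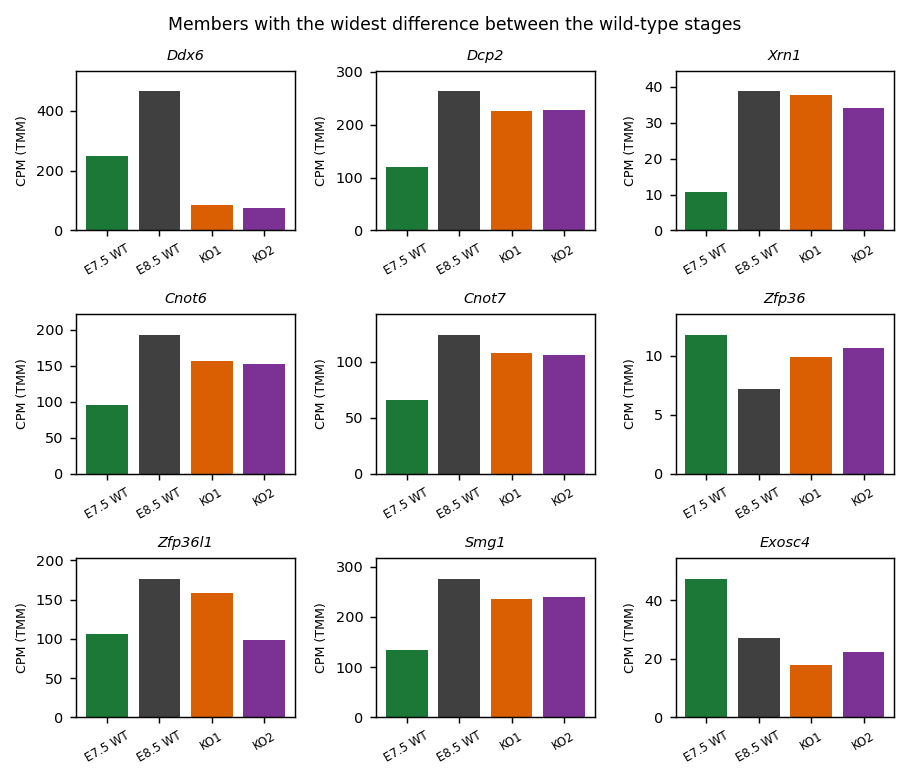
Levels in CPM scaled by the normalization factors (vertical axes from 0, 1 bar per library) of Ddx6 and of the other members whose wild-type stages differed by over 0.7 on the log2 scale. The KO bars of Dcp2, Xrn1, Cnot6, Cnot7 and Smg1 stand near wild-type E8.5, whereas Zfp36l1 in KO2 stands near wild-type E7.5.

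Place between the stages was expressed as the share of the log2 distance from wild-type E8.5 to wild-type E7.5. KO1 and KO2 had covered 18.8% and 18.1% of it for Dcp2, 2.03% and 9.77% for Xrn1, 29.2% and 33.5% for Cnot6, 22.5% and 24.8% for Cnot7, and 21.9% and 20.2% for Smg1. These 5 members thus had levels nearer to the wild type of the same age in both KO libraries. For Zfp36 the shares were 64.8% and 80.2%, and for Zfp36l1 they were 21% and 114%. Exosc4 lay on the far side of wild-type E8.5 from the younger stage, at -74.2% and -33.2%. wild-type E8.5 is a single library and enters every one of these shares.

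The difference between stages went with transcript length across all genes. Median differences of wild-type E7.5 from wild-type E8.5 were 0.34, 0.21, 0.03, -0.18 and -0.50 from the shortest to the longest of 5 bins of exon length. Across genes, which are not independent replicates, Spearman's rho between exon length and the stage difference was -0.40 over 14290 genes and -0.53 over the 52 members. For KO1 against wild-type E8.5 it was 0.01 and 0.03, and for KO2 it was -0.12 and -0.22. Dcp2, Xrn1, Cnot6 and Smg1 are in the longest bin, and Lsm2, Lsm3, Lsm4, Lsm5 and Lsm7 are in the shortest. The part of length in the stage differences of these genes was not tested.

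**Figure D5:**
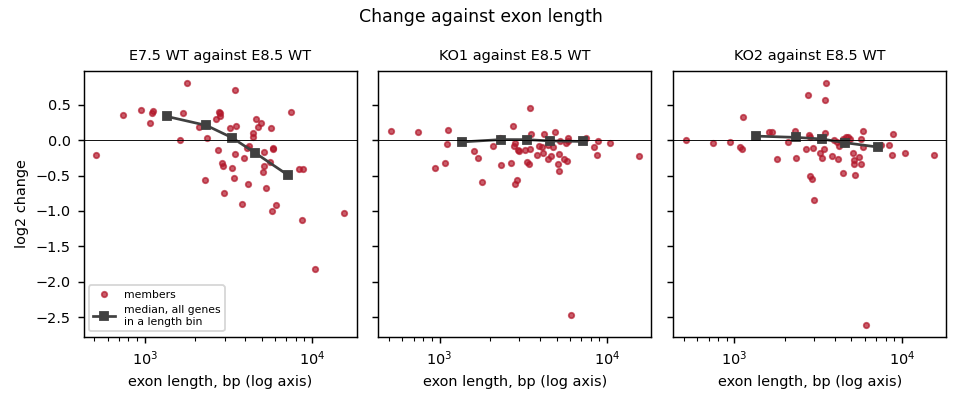
Log2 change against wild-type E8.5 (vertical axes) of wild-type E7.5, KO1 and KO2 by annotated exon length (horizontal log axes, bp). Red points are the 52 members and black squares the medians of all genes in 5 length bins, which run from 0.34 down to -0.50 in wild-type E7.5 and stay between -0.10 and 0.06 in both KO libraries.

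A further list of 57 decay genes outside the 52 held further subunits, regulators and paralogs, and 56 of them were used here. None had a change over 1 in the same direction in KO1 and KO2, beside 3.44% of all genes higher and 1.79% lower. Of the 56, 48 (85.7%) lay within 0.5 of wild-type E8.5 in both, beside 60.6% of all genes. Counting intervals in both KO libraries lay above 0 for 2 of them (3.57%, beside 13.7% of all genes) and below 0 for 19 (33.9%, beside 15.8%). Among the 10456 genes at or above the lowest member's mean count, 1.27% were over 1 higher and 0.545% over 1 lower in both. Of these genes 74.6% lay within 0.5, and 19.0% had both intervals below 0. That floor was set by the members, and Btg3 lies below it. Both KO libraries were below both WT libraries for 22 of the 56 (39.3%), beside 25.0% of the members and 17.6% of all genes. They were above both for 5 (8.93%), beside 7.69% of the members and 18.4% of all genes. Their median change was -0.18 in KO1 and -0.12 in KO2. The edgeR test gave no unadjusted p below 0.05 and DESeq2 no adjusted p below 0.05 for any of the 56.

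The highest mean change in that list was that of Zfp36l3, a rodent relative of Zfp36 expressed in extraembryonic tissue. It had 85 reads in wild-type E7.5, 29 in wild-type E8.5, 23 in KO1 and 81 in KO2, so KO2 and wild-type E7.5 stood together above the others. Its change was 0.20 in KO1 and 1.43 in KO2. The summed CPM of 5 extraembryonic ectoderm markers was 347 in wild-type E7.5, 157 in wild-type E8.5, 155 in KO1 and 304 in KO2. Eomes, which is also expressed in the primitive streak, gave 84.4% of the KO2 sum, and without it the sums were 234, 152, 146 and 47.3. The part of extraembryonic tissue in the Zfp36l3 values was not tested.

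Dis3l, a cytoplasmic relative of Dis3, followed with 398, 299, 287 and 438 reads and changes of 0.49 and 0.56. Angel1 had 131, 129, 132 and 162 reads and changes of 0.57 and 0.34. The lowest were Btg3, with 13 reads or fewer in every library, Eif4e3, with changes of -0.43 and -0.89, and Samd4, with 55, 169, 81 and 113 reads and changes of -0.50 and -0.56. Samd4 in the KO libraries lay between the wild-type stages.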

How the data were processed

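The authors deposited raw counts per gene for 4 libraries, prepared from polyadenylated RNA with a stranded kit. Per the authors' methods and processing notes, reads were trimmed with Cutadapt 2.8, aligned to mm10 with HISAT2 2.1.0, sorted with SAMtools 1.9 and counted strand-specifically with featureCounts 2.0.0. Totals ranged from 8198402 to 12562640 counts, and a member's reads set its counting error.

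Counts were normalized by TMM in edgeR 4.0.16 (R 4.3.3). A gene was kept when any 1 library had 10 counts or more for it. Changes were differences of log2 CPM with a prior count of 2, called beyond 1. Exact Clopper-Pearson 95% intervals cover counting error only. Two-sided edgeR quasi-likelihood tests with Benjamini-Hochberg adjustment over all genes set the KO libraries against E8.5 WT and against the WT libraries of both stages. DESeq2 1.42.0 was the alternative. The steps were tested on simulated data with larger changes than any member had, so small changes were not covered.

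The 52 members, the lists and the tests were chosen with earlier results of these data known. Members named with reads were Ddx6, its partners, the 5 highest and 5 lowest by mean change, members past the threshold, at an edgeR p below 0.05 or past both WT libraries by 0.5, and paralogs. Members outside this rule, named for the stage comparison or to complete a role, were chosen after their values were seen. Of the list of other decay genes the 3 highest and 3 lowest were named. Genes at or above the lowest member's mean count, length bins and the count within 0.5 were added after seeing the data. So were the marker sums without Hand1 or Eomes and the reads of single decidua and visceral endoderm markers.

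Gene lengths and positions came from GENCODE on GRCm38, the assembly of mm10. Of the table's genes 23983 (98.2%) had a match, 649 of these through an older symbol. Near-identical copies were stretches of at least 100 bases at 95% identity or more (blastn 2.17.0). Figures were drawn with matplotlib 3.10.9.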

Additional observations from a re-analysis of the deposited data

How the results depend on the processing

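Of 102 values of the comparisons under alternatives, 88 kept their direction and call or stayed within 1.5 times the reported count, 13 moved, and none reversed. DESeq2 gave a Ddx6 change of -2.53 with a passing adjusted p. A threshold of 0.5 in place of 1 gave 3 lower members in both KO libraries, 2 higher and 11 lower between wild-type stages, and 1 higher and 1 lower between KO2 and KO1. Plain CPM gave 2 members with intervals above 0 and 11 below, beside 17.7% and 11.2% of all genes. The median change of the members was then -0.049 (mean of the 2 library medians) in place of -0.11. Plain CPM omits the normalization factors, which by construction raises every change by 0.07 in KO1 and 0.05 in KO2. Leaving out each KO library in turn gave 1 to 4 members with intervals above 0 and 22 to 24 below. It gave 5 to 9 members above both WT libraries and 16 to 22 below. The 4 and the 9 came without KO1, and the 22 below both WT libraries without KO2. For the threshold of 0.5 and for leaving out a KO library, the shares of all genes are not given here. A looser rule passes more genes of any kind, so these counts are not read as results about the members. Of 153 values of single members 12 turned sign, none of them over 0.06 in size. No paired analysis was possible because each WT stage had 1 library, with no replicate number. Depth limits Dcp1b and Zfp36 most, with 100 and 88 reads in E8.5 WT. Against both WT libraries, edgeR without KO1 or without KO2 gave 1 lower member at an unadjusted p below 0.05 (Ddx6, with Pabpc1 lost) and 0 higher. The lone KO library was assumed there to vary like the WT libraries. Against E8.5 WT the same was not run, since 1 library per group leaves no residual degrees of freedom.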
